A study of Sus scrofa with 9 samples.

Results

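The genes described here encode the sarcomere, the contractile unit of skeletal and cardiac muscle, together with proteins attached to it. Members were taken from a list of 48 gene symbols, and 41 of these were present in both deposited tables of 5-hydroxymethylcytosine (5hmC) levels, which shared 18752 genes. MYH3, MYH6, MYH8, MYH13 and TNNI2 were in neither table. TCAP, a titin-binding Z-disc protein, was listed in the Obese and Lean table alone, where its highest value was 0.960 normalized counts and all 3 Lean libraries were at 0. CAV3, the muscle caveolin of the sarcolemma, was listed in the vitamin-C table alone, where its highest value was 1.01 and all 3 untreated libraries were at 0.

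In the sarcomere, myosin thick filaments pull on actin thin filaments. Calcium binding to troponin shifts the position of tropomyosin on the thin filament and permits the pull. Titin and nebulin act as long molecular springs and rulers. The thin filaments are anchored in the Z-disc and the thick filaments in the M-band. Most of these proteins are made in striated muscle, whereas mesenchymal stem/stromal cells (MSCs) from fat contract, if at all, with non-muscle and smooth muscle isoforms. 5hmC is an oxidized form of methylated cytosine made by the TET enzymes, for which vitamin-C serves as a cofactor, and over gene bodies it is generally associated with active transcription, although expression was not measured in these libraries.

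hMeDIP-seq, in which an antibody pulls down fragments carrying 5hmC before sequencing, was performed on cultured MSCs from subcutaneous abdominal fat of female domestic pigs that were 3 months old at the start of the diet. Lean-MSCs came from pigs on standard chow and Obese-MSCs from pigs on a high-fat/high-fructose diet, both for 16 weeks. Obese-MSCs were profiled untreated and after 48 h with vitamin-C at 50 µg/mL, giving 3 libraries in each of 3 groups (Lean 7, 8 and 9, untreated Obese 1, 2 and 3, treated Obese 4, 5 and 6). Untreated means without this addition, since the study states that its growth medium already contained some vitamin-C. The study adds that the effect of vitamin-C might be underestimated for that reason. The 3 groups held no Lean-MSCs with vitamin-C. The labels do not tell which treated and untreated cultures came from one pig, so p-values measure the spread between these libraries. Each library holds the DNA of a whole culture, so fewer cells with the mark and less mark per cell cannot be told apart.

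Values were normalized read counts over the exons of each gene, and the 2 tables were normalized separately. Library totals ranged from 494566 to 522269 normalized counts in the Obese and Lean table and from 547242 to 593846 in the vitamin-C table, so a value is relative to its own library and a shift of all genes together would not show. The same untreated libraries had values 1.10 to 1.13 times higher in the second table, for which reason groups were compared within a table only. In each library the 41 members together took between 0.275% and 0.303% of the total. The MSC surface marker genes NT5E, THY1 and ENG carried between 12.4 and 67.4 normalized counts in the Obese and Lean table, but so did CD34 and PTPRC, which MSCs are held to lack (13.4 to 68.5). CD14, the remaining gene that MSCs are held to lack, was at 0 in all 3 Lean libraries and at 0.650, 0.924 and 4.49 in the untreated Obese libraries. 5hmC over exons is not expression and was not read as a sign of cell type.

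Of the 41 sarcomere genes, 2 had low 5hmC levels in untreated Obese-MSCs compared with Lean-MSCs and none had high levels, by the p and ratio thresholds of the study's methods (0.05, with 1.4 for high and 0.7 for low), applied here to a two-sided equal-variance test of each gene on the deposited values. These were MYH7, the slow skeletal and cardiac β-myosin heavy chain, and MYL3, the essential light chain of the same slow and ventricular myosin. The 2 of 41 (4.88%) stood beside 4.50% of all 18933 genes called in either direction, of which 2.07% were high and 2.43% low, so the share of members called was close to the background. The Lean and Obese libraries did not overlap for 3 members, MYH7, MYL3 and the thin filament ruler NEB, all 3 lower in Obese-MSCs, beside 11.8% of all genes without overlap (5.70% higher and 6.06% lower). Without the ratio threshold these same 3 members passed, beside 6.04% of all genes. The count of 2 became 1 without untreated 1, untreated 3 or Lean 8, 3 without untreated 2 (MYH7, CSRP3 and TNNT2) and 4 without Lean 7 (MYH7, MYL3, LDB3 and MYH2).

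5hmC over MYH7 was 45.1, 47.4 and 40.2 normalized counts in untreated Obese-MSCs and 69.0, 66.5 and 71.9 in Lean-MSCs. Every Obese library lay below every Lean library, and the libraries of a group differed little, with a pooled coefficient of variation of 5.71%. The median of this coefficient was 32.0% over the members with both means above 3. With 3 libraries a group so small a spread is itself uncertain, and the SE below rests on it. Mean levels were 44.2 ± 3.71 and 69.1 ± 2.68 (SD, n = 3 each), a ratio of 0.640 and a log2 ratio of -0.64 (SE 0.08). The exact two-sided permutation test gave p = 0.1, the smallest that 3 libraries against 3 allow. With limma, which shares the spread between genes, the 95% interval of the log2 difference was -1.10 to -0.17. The limma adjusted p was 0.668 over all 15146 genes tested. The call was kept when any 1 of the 6 libraries was left out, with log2 ratios between -0.70 and -0.58. MYH7 lies on chromosome 7 from 75650841 to 75672908 in Sscrofa11.1.

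**Figure D1:**
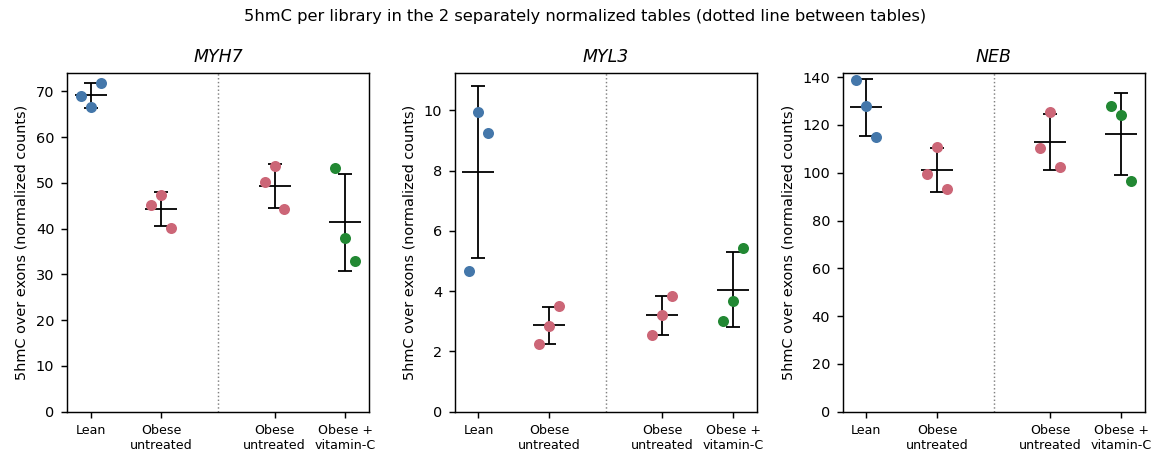
5hmC over the exons of MYH7, MYL3 and NEB in normalized counts (vertical axis, from 0) for Lean, untreated Obese and vitamin-C-treated Obese libraries. Points are libraries, bars are the mean ± SD of 3, and the dotted line separates the 2 tables that were normalized apart. For all 3 genes the untreated Obese points lie below the Lean points, while treated and untreated points overlap.

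The other myosin heavy chains of the list were the fast skeletal isoforms MYH1 (2X), MYH2 (2A) and MYH4 (2B), neighbours on chromosome 12 between 55190545 and 55278820. MYH1 had a ratio of 0.568 (log2 -0.82, SE 0.45), with Obese values from 2.95 to 6.89 and Lean values from 5.77 to 10.2, which overlapped. MYH2 had a ratio of 0.785 and MYH4 a ratio of 1.01, and neither group of 3 was separate from the other. How reads shared by near-identical myosin genes or actin genes were counted is not given in the sources used here, so the values of these paralogs are uncertain to that extent.

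Among the light chains, MYL3 had 2.26, 2.84 and 3.49 normalized counts in untreated Obese-MSCs and 4.68, 9.93 and 9.23 in Lean-MSCs. The groups did not overlap, but all 6 values were low and Lean 7 lay nearer to the Obese libraries than to the other Lean libraries. The Obese mean was 2.86 ± 0.619 and the Lean mean 7.95 ± 2.85 (SD, n = 3 each). Because the Obese mean was under a floor of 3 normalized counts, it is given as at least 2.65-fold lower. That bound concerns these 2 means against the floor and does not cover the spread between libraries. The exact permutation p was 0.1 and the limma adjusted p was 0.694. The call was lost when untreated 1, untreated 2, untreated 3, Lean 8 or Lean 9 was left out and was kept without Lean 7, with log2 ratios from -1.74 to -1.28. MYL3 lies on chromosome 13 from 29730271 to 29735616.

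MYL1, the fast skeletal essential light chain, had a ratio of 0.672 with overlapping groups (2.90 to 7.64 in Obese and 3.58 to 9.93 in Lean). MYL2, the slow and ventricular regulatory light chain, had a ratio of 0.736, and MYL4, the atrial and embryonic light chain, a ratio of 1.07. MYL7, the atrial regulatory light chain, did not exceed 0.995 normalized counts in any of these 6 libraries.

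The troponins, which make the thin filament sensitive to calcium, were represented by 7 genes, of which TNNT1 (slow skeletal troponin T) and TNNI3 (cardiac troponin I) lie side by side on chromosome 6. TNNI3 had 26.1, 13.2 and 20.02 normalized counts in untreated Obese-MSCs and 22.6, 23.8 and 18.5 in Lean-MSCs. Both the highest and the lowest of the 6 values were in Obese libraries. The log2 ratio was -0.13 (SE 0.29), with an exact permutation p of 0.7 and a limma adjusted p of 0.953. TNNT1 had a ratio of 1.20, and TNNC1, the slow and cardiac calcium-binding subunit, had a ratio of 0.818. TNNT2, TNNT3, TNNI1 and TNNC2 had means at or under 3 in both groups, and no ratio is read from them.

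On the thin filament itself, TPM1, an α-tropomyosin that many cell types make in several isoforms, had 146, 229.6 and 186 normalized counts in untreated Obese-MSCs and 217, 202 and 168 in Lean-MSCs. The Obese values enclosed the Lean values, with a log2 ratio of -0.06 (SE 0.21), an exact permutation p of 0.8 and a limma adjusted p of 0.968. TPM2 had a ratio of 1.09, TPM3 of 0.991 and LMOD2, a leiomodin that nucleates actin filaments, of 1.17. ACTC1, the cardiac α-actin, had a ratio of 0.740 over a wide spread of 1.24 to 11.09. ACTA1, the skeletal α-actin, stayed at or below 1.61 in these libraries.

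The giant filament genes NEB and TTN had the lowest median coefficient of variation within groups of the role groups, 9.93%. NEB, which runs along the thin filament, had 99.4, 111 and 93.1 normalized counts in untreated Obese-MSCs and 139, 128 and 115 in Lean-MSCs. All Obese values lay below all Lean values, though untreated 2 and Lean 9 were close to each other. Means were 101 ± 9.05 and 127 ± 11.9 (SD, n = 3 each), a ratio of 0.795 that did not pass the ratio threshold, and a log2 ratio of -0.33 (SE 0.11). The exact permutation p was 0.1 and the limma adjusted p was 0.794, and leaving out 1 library at a time gave log2 ratios of -0.40 to -0.26. NEB lies on chromosome 15 from 546187 to 766131. TTN, which encodes titin, was nearly equal between groups at 206, 241 and 244 in Obese and 238, 249 and 197 in Lean, a log2 ratio of 0.01 with a limma 95% interval of -0.34 to 0.38.

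Of the myosin-binding proteins and the M-band proteins that cross-link thick filaments, MYOM1, encoding myomesin, had 156, 97.5 and 122 normalized counts in untreated Obese-MSCs and 122, 87.4 and 124 in Lean-MSCs. Lean 8 was the lowest and untreated 1 the highest, and the rest overlapped. The log2 ratio was 0.17 (SE 0.25), with an exact permutation p of 0.5 and a limma adjusted p of 0.927. MYBPC1, the slow skeletal myosin-binding protein C, had a ratio of 0.618, with 17.3, 42.9 and 21.4 in Obese-MSCs and 56.2, 33.7 and 42.1 in Lean-MSCs. Untreated 2 reached the Lean range while the other Obese libraries lay below it. The fast skeletal MYBPC2 (ratio 1.15), the cardiac MYBPC3 (1.00), MYOM2 (1.04) and MYOM3 (1.05) had overlapping groups.

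At the Z-disc, MYPN, the myopalladin gene, had 93.0, 123 and 92.0 normalized counts in untreated Obese-MSCs and 68.2, 100.3 and 99.6 in Lean-MSCs. The groups overlapped, with a log2 ratio of 0.20 (SE 0.22), an exact permutation p of 0.6 and a limma adjusted p of 0.905. LDB3, whose product ZASP binds α-actinin, had a ratio of 0.639, with 14.1, 12.3 and 10.7 in Obese and 12.7, 23.8 and 21.6 in Lean. Lean 7 lay within the Obese range, and without that library LDB3 met the criteria (log2 ratio -0.87). CSRP3, the muscle LIM protein, was on the other side at a ratio of 1.73, with 42.0, 24.5 and 59.4 in Obese and 19.4, 27.8 and 25.7 in Lean. Untreated 2 fell within the Lean range, and without it CSRP3 met the criteria as high (log2 ratio 1.06).

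DES, encoding the intermediate filament desmin that ties Z-discs together, had an Obese mean of 5.05 ± 3.11 and a Lean mean of 2.80 ± 0.670 (SD, n = 3 each), at least 1.68-fold higher against the floor. That mean rested on untreated 2, which had 8.61 while the others had 2.90 and 3.64. The calsarcins MYOZ1 (ratio 1.10), MYOZ2 (1.25) and MYOZ3 (1.09) and the actin-binding XIRP1 (0.870) had overlapping groups. ACTN3, the fast α-actinin, had means under 3 in both groups. ACTN2, the α-actinin that cross-links thin filaments in striated muscle, is described because of its spread, which was seen after its values were known. It had 136, 36.7 and 65.1 in untreated Obese-MSCs against 54.6, 71.5 and 90.3 in Lean-MSCs, so the Obese libraries alone spanned more than the Lean range on both sides.

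TRIM63, encoding the ubiquitin ligase MuRF1 that marks sarcomere proteins for breakdown, had 12.0, 6.60 and 6.04 normalized counts in untreated Obese-MSCs and 23.4, 12.9 and 11.3 in Lean-MSCs. Untreated 1 lay above Lean 9, so the groups overlapped by 1 pair of libraries. The ratio was 0.517 and the log2 ratio -0.95 (SE 0.48), with an exact permutation p of 0.2 and a limma adjusted p of 0.704.

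**Figure D2:**
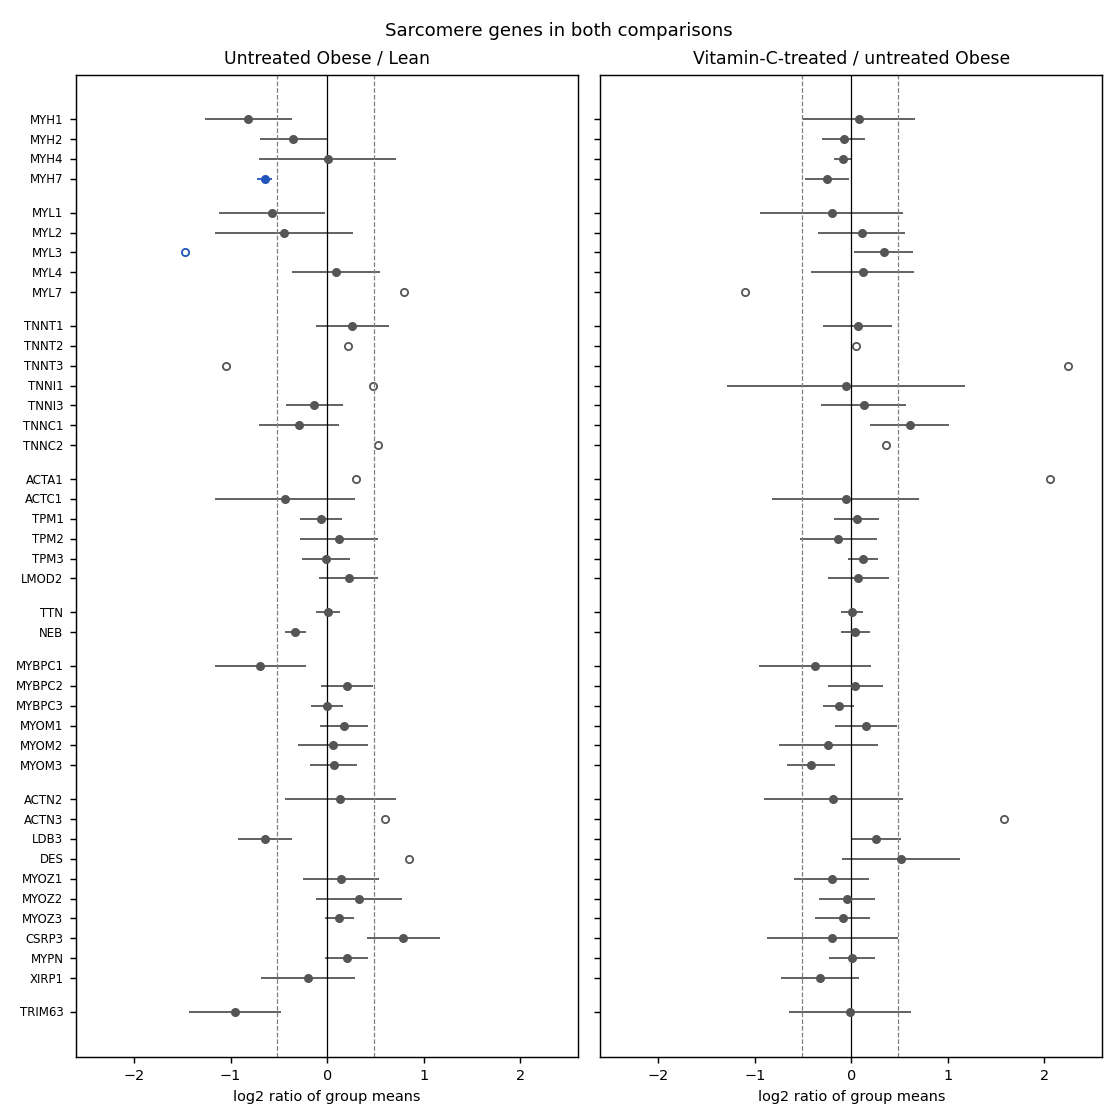
Log2 ratio of group means for the 41 sarcomere genes, grouped by role, for untreated Obese over Lean (left) and vitamin-C-treated over untreated Obese (right). Filled points have both group means above 3 normalized counts and bars of ± 1 SE, open points have a mean at or under 3 and no bar, blue marks genes called low, and dashed lines mark ratios of 0.7 and 1.4. MYH7 is a filled point beyond a dashed line with a short bar, and MYL3 is an open one.

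Taken over the list, the sarcomere genes lay on both sides of equality. Of the 32 members with both means above 3, 17 had a ratio above 1 (50.8% of all such genes), and the median log2 ratio was 0.01 for the members and 0.01 for all genes. A ratio of at most 0.7 was seen in 6 of the 32 (MYH1, MYH7, MYL1, MYBPC1, LDB3 and TRIM63), beside 9.69% of all genes, and a ratio of at least 1.4 in 1 (CSRP3), beside 10.7%. With limma on log2(value + 1), 5 of the 33 members tested had an unadjusted p of 0.05 or less (MYH7, MYL3, MYBPC1 and TRIM63 lower, CSRP3 higher), beside 6.81% of all genes, and none passed after Benjamini-Hochberg adjustment, nor did any other gene (0% of 15146). The median coefficient of variation within groups was 32.0% for the members and 27.3% for all genes.

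Split by fibre type, the 10 fast isoforms present held no called gene and a median log2 ratio of 0.01 over the 7 with means above 3. The 15 slow or cardiac isoforms present held both called genes, MYH7 and MYL3, and a median of -0.13 over 11. Of all genes, 4.50% were called in either direction and 2.43% were called low, and their median was 0.01. The slow or cardiac list also includes the muscle LIM protein CSRP3, with a ratio of 1.73. When settings were varied and libraries left out, the median ranged from -0.38 to 0.08 for the fast isoforms. For the slow or cardiac isoforms it ranged from -0.23 to 0.02. The difference between the fibre types was not tested.

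After vitamin-C, none of the 41 sarcomere genes met the criteria in Obese-MSCs. Of all 18992 genes in that comparison, 1.92% did so, 1.11% high and 0.806% low. Leaving out treated 4 gave 2 calls (ACTN3 and TNNC1, both high) and leaving out untreated 1 gave 1 (MYL2, high). No member had a p of 0.05 or less in the per-gene test without the ratio threshold, beside 2.64% of all genes. Only ACTA1 had groups that did not overlap, with higher treated values, beside 5.91% of all genes (3.24% higher and 2.67% lower).

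MYH7 had 53.3, 37.9 and 33.0 normalized counts after vitamin-C and 50.1, 53.6 and 44.2 without. Treated 4 was level with the highest untreated library, while treated 5 and 6 lay below all 3. Means were 41.4 ± 10.6 and 49.3 ± 4.73 (SD, n = 3 each), a log2 ratio of -0.25 (SE 0.23) with a limma 95% interval of -0.85 to 0.30 and an exact permutation p of 0.3. The untreated libraries are the same in both comparisons, in which MYH7 had log2 ratios of -0.64 (Obese over Lean) and -0.25 (treated over untreated).

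MYL3 had 3.02, 3.69 and 5.42 normalized counts with vitamin-C and 2.55, 3.22 and 3.83 without, a log2 ratio of 0.34 (SE 0.31) and an exact permutation p of 0.5. It was too low to enter the limma fit of this table. NEB had 128, 124 and 96.5 in treated and 111, 125 and 103 in untreated libraries, a log2 ratio of 0.04 with a limma 95% interval of -0.44 to 0.51. For both genes treated and untreated values overlapped.

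Of the other members described in full above, TNNI3 had 22.1, 14.7 and 35.2 treated against 28.7, 15.1 and 22.0 untreated, a log2 ratio of 0.13 with a limma 95% interval of -0.68 to 0.84. TPM1 had 202, 256 and 192 against 162, 259 and 205, a log2 ratio of 0.05 with an interval of -0.40 to 0.54. MYOM1 had 210.2, 138 and 117 against 173, 111 and 135, a log2 ratio of 0.15 with an interval of -0.41 to 0.67. In each of these genes the spread within a group was wider than the difference between groups. MYPN had 115, 139.9 and 90.2 against 104, 139 and 101, a log2 ratio of 0.00 with an interval of -0.51 to 0.50. TRIM63 had 6.04, 15.9 and 5.24 against 13.1, 7.55 and 6.72, a log2 ratio of -0.01 with an interval of -1.07 to 0.85. TRIM63 was high in 1 library of each group, treated 5 and untreated 1.

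The most extreme ratios belonged to genes with few counts. ACTA1 had 2.02, 2.73 and 7.31 normalized counts with vitamin-C and 1.77, 1.08 and 0.0604 without, at least 1.34-fold higher against the floor (exact permutation p = 0.1). The lowest treated and highest untreated libraries differed by less than 1 normalized count. ACTN3 had 4.03, 10.2 and 11.7 with vitamin-C and 0.757, 5.29 and 2.64 without, at least 2.89-fold higher against the floor. Treated 4 lay under untreated 2, and the criteria were met once treated 4 was left out. ACTN3 was also the only member of 34 with an unadjusted limma p of 0.05 or less, beside 0.974% of the 15194 genes tested, and its adjusted p was 1.00. No gene of the table passed adjustment (0%).

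TNNC1 had 3.02, 6.51 and 6.30 normalized counts treated and 4.36, 2.19 and 3.87 untreated, a ratio of 1.52, and it too met the criteria without treated 4. The treated libraries 5 and 6 were above all untreated libraries and treated 4 was not. DES had 5.04, 7.38 and 11.8 treated and 3.33, 9.54 and 4.06 untreated, a ratio of 1.43 with overlapping groups. MYL7, TNNT2 and TNNC2 had means at or under 3 in both groups, and TNNT3 rested on a single treated library, treated 6, at 9.24 normalized counts.

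TNNC1 and DES were the 2 of 35 members with means above 3 that had a ratio of at least 1.4, beside 7.19% of all genes, and no member had a ratio of at most 0.7, beside 5.01%. Of the 35, 17 had a ratio above 1 (50.3% of all genes), and the median log2 ratio was -0.01 for the members and 0.00 for all genes. Thick filament and M-band genes with lower treated means included MYOM3 (ratio 0.750), MYBPC1 (0.769) and MYOM2 (0.848), all with overlapping groups. Members nearest to equality included TTN (ratio 1.00), MYPN (1.00) and MYBPC2 (1.03). TTN had 278, 266 and 229.9 with vitamin-C and 229.7, 272 and 268 without (limma 95% interval of the log2 difference -0.39 to 0.40).

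**Figure D3:**
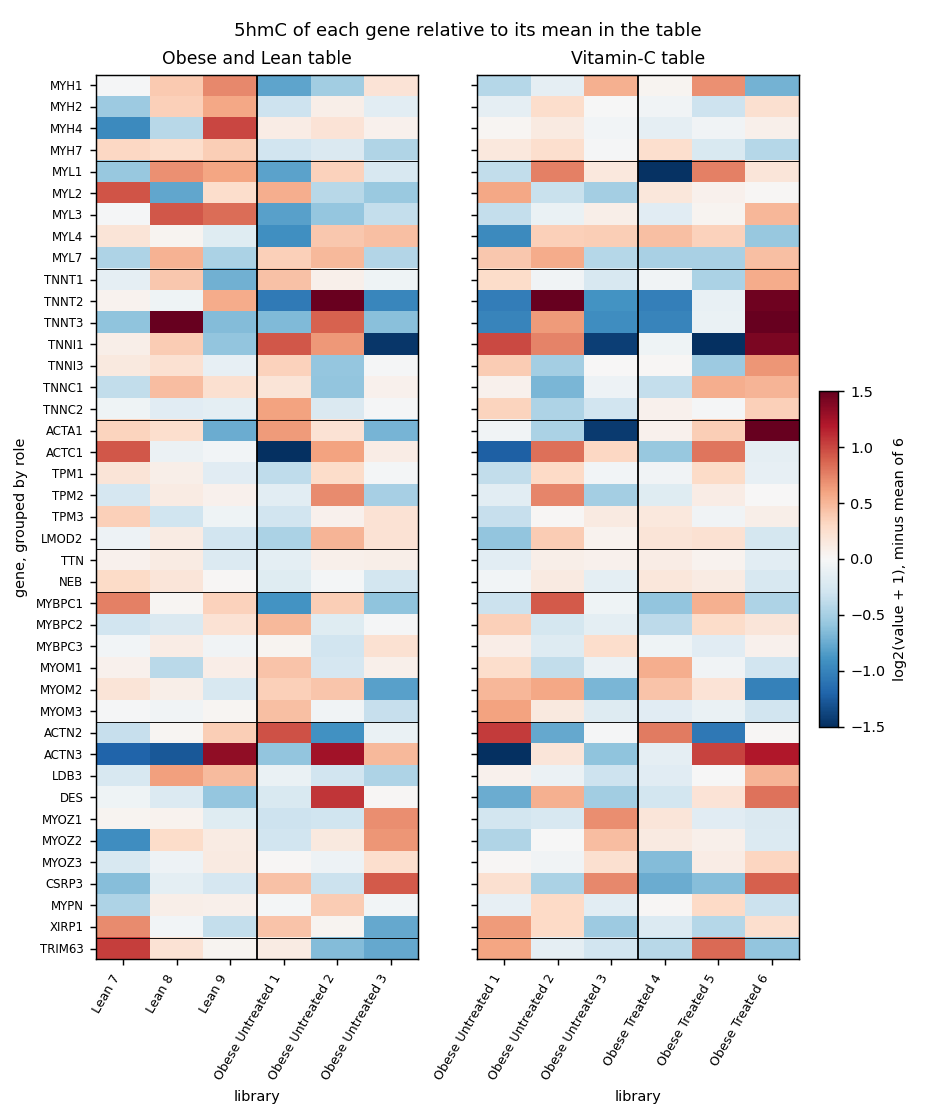
Each sarcomere gene (rows, grouped by role) in each library (columns) as log2(value + 1) minus the mean over the 6 libraries of its table, for the Obese and Lean table (left) and the vitamin-C table (right). Red is above and blue below the mean of the gene, and a vertical line separates the groups. MYH7 changes colour at the line on the left, while for genes such as TNNT3, TNNI1 and ACTN3, which have few counts, the colour changes from library to library.

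Several members differed more between libraries of a group than between groups. ACTN2 had 125, 34.0 and 73.4 normalized counts in treated libraries 4, 5 and 6 and 150.3, 42.1 and 71.6 in untreated libraries 1, 2 and 3. The order of the 3 treated libraries was the same as that of untreated 1, 2 and 3. MYBPC1 showed the same order, with 16.1, 36.3 and 17.8 treated and 19.6, 48.0 and 23.7 untreated. Among the 24 members with means above 10, however, this order was shared by 4 only (ACTN2, MYBPC1, MYBPC3 and MYPN). Each of 2 other matchings of the libraries was followed by 7. Of all 10696 genes with means above 10, 28.6% followed the first matching, and 13.3% and 18.4% followed those other 2. Deviations from the group mean, on the log2(value + 1) scale, were compared between each treated and each untreated library over the same 24 members. Pearson's r was 0.31 for untreated 1 with treated 4, 0.75 for 2 with 5 and 0.30 for 3 with 6, and of the other 6 pairs only 1 with 6 was above 0, at 0.26. Over all 10696 genes above 10 the same 3 pairs had r of 0.36, 0.50 and 0.26 and all others were negative. Deviations within a group sum to 0 for each gene, so a positive r in 1 pair of a library requires a negative r in another. The negative values are therefore not separate findings. The r values are correlations across genes, which are not independent. Whether library depth or base composition had a part in them was not tested. The labels do not match these libraries, so none of them was treated as a pair.

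**Figure D4:**
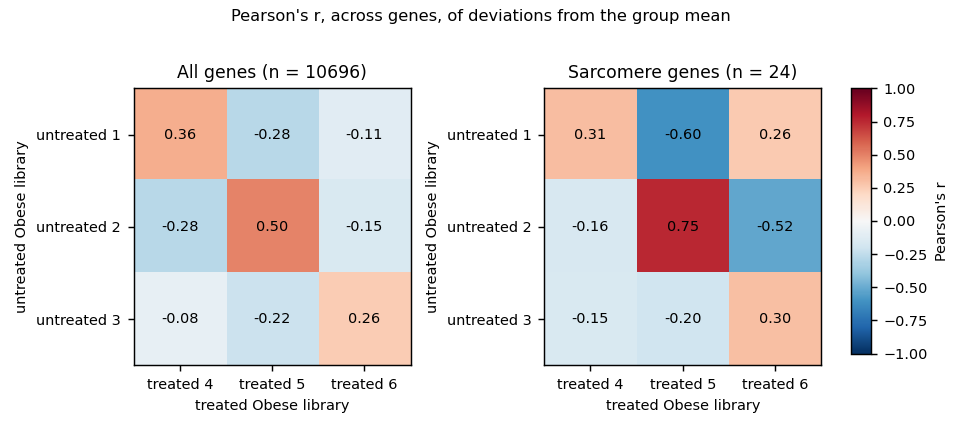
Pearson's r across genes between the deviations of each untreated library (rows) and each treated library (columns) from the mean of its own group, for all genes above 10 normalized counts (left) and for the sarcomere genes above 10 (right). The diagonal cells, 1 with 4, 2 with 5 and 3 with 6, hold the highest r in each row of both panels.

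Other genes of the contractile apparatus, from lists of 106 genes of which 101 were in each table, were read in the same way. In untreated Obese-MSCs 5 had high and 4 had low 5hmC levels compared with Lean-MSCs, beside 2.07% high and 2.43% low among all genes. These 9 calls became 3 without untreated 1 or Lean 7, 4 without Lean 8 and 5 without Lean 9. The low ones were all in the list of other sarcomere genes, of which 34 were present: KLHL41, SMYD1, SYNPO2L and XIRP2, which encode a stabilizer of nebulin, a muscle methyltransferase, a Z-disc protein and an actin-binding Xin repeat protein. SMYD1 had 33.9, 29.3 and 57.0 normalized counts in Obese-MSCs and 92.5, 84.4 and 66.8 in Lean-MSCs, a ratio of 0.493 without overlap. XIRP2, the paralog of XIRP1, had 10.7, 20.03 and 9.64 against 28.2, 27.8 and 24.7, a ratio of 0.4997 without overlap. FHL2, a LIM protein also made outside muscle, was high in this list (ratio 1.51). Each of these 5 calls was lost without at least 3 of the 6 libraries in turn. The median log2 ratio over 33 genes was -0.01.

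The genes listed as non-muscle counterparts of the sarcomere proteins lay above equality. MYH14, which is also a non-muscle heavy chain, was placed among the other sarcomere genes instead, and had a ratio of 0.889 with overlapping groups. All 8 genes of the non-muscle list with means above 3 had a ratio above 1, beside 50.8% of all such genes. Their median log2 ratio was 0.56, beside 0.01 for all genes. Of the 9 present, 3 were called high, beside 2.07% of all genes. ACTB, cytoplasmic β-actin, had 51.0, 61.6 and 64.6 normalized counts in untreated Obese-MSCs and 28.5, 43.7 and 42.1 in Lean-MSCs. ACTN1, the non-muscle α-actinin, had 51.1, 68.4 and 46.2 against 22.8, 33.8 and 33.9. MYH10, non-muscle myosin IIB, had 150.0, 147 and 153 against 114, 84.4 and 111. In all 3 genes every Obese library was above every Lean library, as in 5.70% of all genes. Ratios were 1.55, 1.83 and 1.45, limma adjusted p-values 0.679, 0.668 and 0.668 and exact permutation p-values 0.1. The call of MYH10 was lost only without Lean 8, that of ACTB without untreated 2, untreated 3, Lean 7 or Lean 9, and that of ACTN1 without untreated 1 or any 1 Lean library. Leaving out single libraries and changing settings gave medians of this list from 0.47 to 0.64, with 7 or 8 genes above 1. The lists were chosen with earlier results of these data known, and the difference between the sarcomere genes and their non-muscle counterparts was not tested.

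Among 12 smooth muscle contractile genes, 11 had a ratio above 1, beside 50.8% of all genes with means above 3. The median log2 ratio was 0.21, but it moved between 0.04 and 0.48 as libraries or settings changed. The number above 1 then moved between 6 and 11. MYLK, the kinase that switches on smooth muscle myosin, was the 1 called high, with 162, 125 and 145 against 68.2, 104 and 103, and its call was kept only when untreated 2 was the library left out. The genes of excitation-contraction coupling (median 0.05 over 25) and of the dystrophin complex and costamere (0.02 over 18) held no called gene. With vitamin-C, 1 of the 101 genes was called, SNTB1, encoding a syntrophin of the dystrophin complex, which was high at 10.1, 13.0 and 14.4 treated against 8.70, 7.51 and 5.38 untreated. That call was kept without treated 4 or untreated 1 and lost without any 1 of the other 4 libraries. The non-muscle counterparts then had a median log2 ratio of -0.06.

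**Figure D5:**
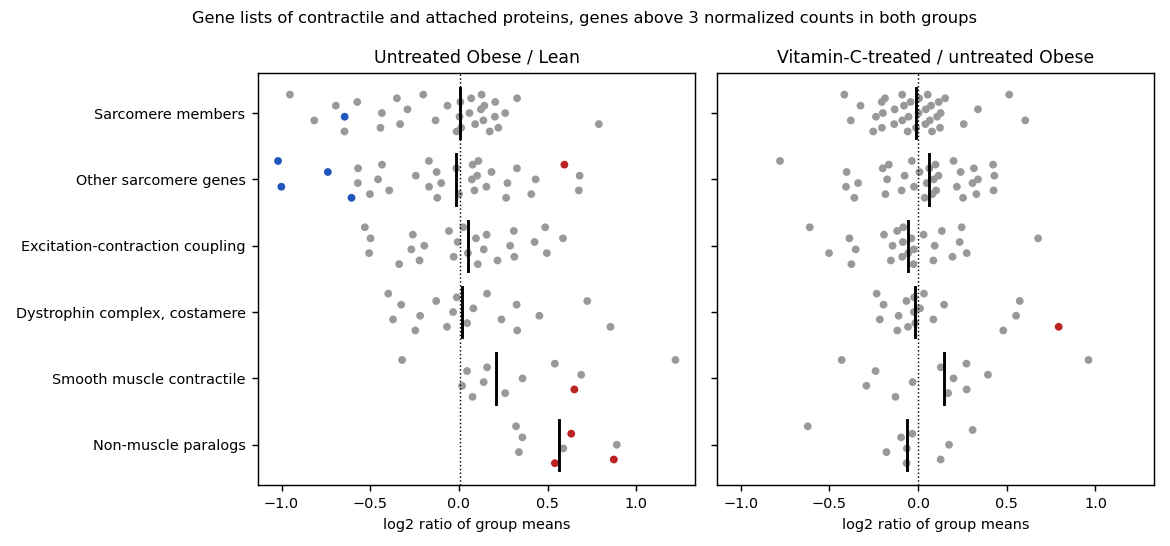
Log2 ratio of group means for genes with both means above 3 normalized counts in the sarcomere list and 5 lists of related genes, for untreated Obese over Lean (left) and treated over untreated Obese (right). Each point is a gene, red is called high, blue is called low, and the bar is the median of the list. On the left the sarcomere median lies at 0.01 and that of the non-muscle paralogs at 0.56, and on the right they lie at -0.01 and -0.06.

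Regulators of the muscle lineage were read beside these results, as 5hmC levels only and not as a sign of cell type. MYOD1 was at or under 1.17 normalized counts in all 6 libraries of the Obese and Lean table. MYF5, PAX3 and PAX7, factors of muscle precursors, were called low in untreated Obese-MSCs, 3 of 7 regulators, beside 2.43% of all genes called low. The other regulators did not share this direction clearly: MEF2C had a ratio of 1.18, MYF6 of 0.974 and MYOG of 0.903, all with overlapping groups. Without any 1 of the untreated libraries none of the 3 was called, without Lean 7 PAX3 and PAX7 were, and without Lean 9 MYF5 was. Without Lean 8 none of the 3 was called, while MYOD1, under the floor, was called high. PAX7 had 4.51, 7.62 and 5.90 normalized counts in Obese-MSCs and 9.20, 16.9 and 12.3 in Lean-MSCs. Its groups did not overlap, beside 11.8% of all genes without overlap in either direction. With vitamin-C, PAX7 was the 1 of 7 called, high at 14.1, 13.0 and 9.76 against 5.10, 8.54 and 6.51, beside 1.11% of all genes called high. That call was lost without treated 4, treated 5, untreated 1 or untreated 3, and the unadjusted limma p was 0.052. The untreated libraries are the same in both comparisons, so the low and the high call of PAX7 are not independent. Low values in those libraries would move both ratios. PAX3 was called high without treated 4, and MYOG was called high without untreated 3. Whether the regulators had a part in the values of the sarcomere genes was not tested.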

How the data were processed

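The authors aligned paired-end hMeDIP-seq reads to the porcine genome (susScr 11.1), removed duplicates, counted reads over the exons of each gene and normalized them with edgeR. The submitters' processing notes name Bowtie2 2.3.3.1, Picard 1.67, HTSeq 0.9.1 and edgeR 3.28.1. The deposited values are normalized counts, a signal per gene rather than whole reads: below 20 their steps were 0.784 to 1.28 normalized counts, and between 35.8% and 100% of values per library lay within 0.1 of a step, so whole reads were not recovered and no count model was run. They can be compared between libraries of a table but not between genes, whose exon lengths the files do not give. Read depth is not given in the sources used here. In the vitamin-C table, values below 1e-09 (645 in all) were set to 0 and 25 gene names had been turned into dates.

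Groups were compared within each table over all its genes, with a two-sided equal-variance test and the p and ratio thresholds of the study's methods. limma 3.58.1 with trend (R 4.3.3) was fitted on log2(value + 1) to the 80% of genes with the highest means, with Benjamini-Hochberg adjustment over all of them. Exact permutation tests used all 20 arrangements of 3 against 3 libraries. Ratios against a mean under 3 normalized counts are given as bounds against that floor. Such a bound concerns the means of the libraries at hand, and leaving out a library can give a smaller difference. Scripts used Python 3.11.15, numpy 2.4.6, pandas 2.3.3, scipy 1.17.1 and matplotlib 3.10.9 and were tested on simulated data. Gene positions came from RefSeq (Sscrofa11.1), in which all 41 members were found.

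The members, roles and gene lists were chosen with earlier results of these data known. Members were given in full where they met the criteria, where their groups did not overlap with both means above 3, or, in a role group where neither applied, for the highest mean, and with a ratio where it passed 1.4 or 0.7. Alternatives covered the pseudocount, filters, scaling, thresholds, the variance assumption and leaving out each library. Blocking by each possible matching of treated and untreated libraries, dropping the ratio threshold, and leaving out libraries for the muscle regulators were chosen after seeing the data.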

Additional observations from a re-analysis of the deposited data

How the results depend on the processing

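By the criteria of the study MYH7 was called low under each of the 15 alternatives run on the members' count. The number of members called in Obese- versus Lean-MSCs (2) ranged from 1 to 4 as single libraries were left out: MYL3 was lost without untreated 1, 2 or 3, Lean 8 or Lean 9, LDB3 and MYH2 were added without Lean 7, MYH4 (high) without Lean 9, and CSRP3 (high) and TNNT2, under the floor, without untreated 2. It was 1 at p of 0.01 or less, 1 with unequal variances and 5 with the unadjusted limma p, which called 5 by itself. The smallest limma adjusted p of a member lay between 0.467 and 0.961 over 14 settings, the main one included. Members without overlap (3) numbered 5 to 8 with 1 library left out, which makes separation easier. The share of all genes without overlap was not computed with a library left out, so these counts have no background beside them. The median log2 ratio (0.01) ranged from -0.061 to 0.032 without single libraries and was 0.069 for members above 10 in both means. Related genes called (9) numbered 3 to 10 without single libraries and 1 (MYH10) at p of 0.01 or less.

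With vitamin-C, members called (0) numbered 0 to 2 without single libraries (ACTN3 and TNNC1 without treated 4, MYL2 without untreated 1) and 1 with the unadjusted limma p, which called 1 by itself (ACTN3). Members without overlap (1) numbered 3 to 5 without single libraries, again with no share of all genes computed, and 0 when a mean above 3 was required. The median log2 ratio (-0.01) ranged from -0.083 to 0.035. Related genes called (1) numbered 0 to 3 without single libraries and 0 at p of 0.01 or less. The causes of these changes were not tested. No called value changed sign, but values without a call did when 1 library was left out: log2 ratios ran from -0.38 to 0.09 for TNNI3, -0.24 to 0.09 for TPM1 and -0.02 to 0.33 for MYOM1 in Obese over Lean, and from -0.70 to 0.35 for TRIM63 with vitamin-C. No paired analysis was possible because the groups share no replicate numbers and the labels name no pairs. The 6 possible matchings of treated and untreated libraries, each taken as a replicate block in limma after seeing the data, gave 0 members by adjusted p, where no gene came near the threshold with or without the block, and 1 by unadjusted p each time. With 3 libraries a group, the exact test cannot go below p = 0.1, and the low values of MYL3, ACTA1, ACTN3 and most troponins limit how firmly their differences can be read.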
